A study of Mus musculus with 44 samples.

Results

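Public TRB CDR3s were the 274 amino acid sequences of the T cell receptor beta chain that were read in 10 or more of 44 mouse tumours, of 72765 distinct TRB CDR3s in all (0.377%). They were chosen by a measured value, the number of tumours in which the sequence had at least 1 read, so that number describes them and is not a result. A sequence was taken as TRB when it ended in 1 of 12 J gene endings, which keeps CDR3s with an intact J end and leaves out those whose J end was trimmed further. B16F10 cells, a mouse melanoma line, were implanted subcutaneously on the back of wild-type C57BL/6 mice (C57BL/6J in the methods), and 100 ug of each bulk tumour was taken on day 12. The groups were Vehicle (n = 14), aPD-1, an antibody against the checkpoint receptor PD-1 (n = 15), and AC484, a small-molecule inhibitor of the phosphatases PTPN2 and PTPN1 (n = 15). The labels give neither dose nor age, and the methods describe the control tumours as receiving no treatment. All mice had their own endogenous TCR repertoire, and no receptor transgene was labelled in any group.

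The CDR3 is the loop of the T cell receptor that lies over the peptide held by an MHC molecule. In the beta chain it is made when a V, a D and a J segment are joined, with bases trimmed from and added to the ends at random. A CDR3 therefore starts with residues of a V gene, ends with residues of a J gene, and holds between them a stretch that no J or V gene encodes. Most CDR3s are found in 1 animal, whereas sequences that are easy to build, with few added bases, can arise separately in many animals and are called public. A shared sequence does not by itself tell which peptide is recognized.

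The 12 public CDR3s of up to 14 residues that were read in the most tumours are shown with their J gene, because the values below turn on them and on sequences like them.
Read in 32 tumours, Trbj1-3: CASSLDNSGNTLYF
Read in 30 tumours, Trbj2-4: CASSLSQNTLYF
Read in 29 tumours, Trbj2-7: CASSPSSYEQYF
Read in 25 tumours, Trbj1-5: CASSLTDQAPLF
Read in 25 tumours, Trbj2-7: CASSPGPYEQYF
Read in 25 tumours, Trbj2-7: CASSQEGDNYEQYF
Read in 24 tumours, Trbj2-3: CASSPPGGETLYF
Read in 21 tumours, Trbj1-4: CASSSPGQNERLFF
Read in 21 tumours, Trbj1-2: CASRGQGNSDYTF
Read in 21 tumours, Trbj1-1: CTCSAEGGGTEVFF
Read in 21 tumours, Trbj1-1: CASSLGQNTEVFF
Read in 21 tumours, Trbj2-7: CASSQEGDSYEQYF

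Of these 12, 4 end in YEQYF, the ending of Trbj2-7, and the starts CASSL, CASSP and CASSQ recur. Of the 274 members, 213 had 14 or fewer residues. The longer ones are described by their values and their first residues. The sequence in the most tumours, 39 of 44, was one of these: it has 15 residues, starts with CGARDWGG and ends with the residues of Trbj2-4.

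Both D segments, 2 J segments that public CDR3s used more than single-tumour CDR3s and the J segment they used least are shown from the RefSeq mouse genome GRCm38, with the bases behind the named residues in capitals. All lie on the plus strand of chromosome 6 in the TRB locus. The capitals mark TGG in Trbd1, DWGG in Trbd2, YEQYF in Trbj2-7, QNTLYF in Trbj2-4 and QAPLF in Trbj1-5, the least used.
Trbd1, chr6:41533201-41533212: gggACAGGGGGC
Trbd2, chr6:41542163-41542176: ggGACTGGGGGGGC
Trbj2-7, chr6:41543810-41543856: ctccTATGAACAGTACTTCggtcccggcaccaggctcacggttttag
Trbj2-4, chr6:41543362-41543410: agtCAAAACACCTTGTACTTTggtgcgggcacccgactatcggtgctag
Trbj1-5, chr6:41535084-41535133: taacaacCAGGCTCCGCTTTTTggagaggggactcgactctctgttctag

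The label of TRB was checked on the germline genes: none of the 45 Traj genes that could be read to their J motif ends like 1 of the 12 TRB endings. By this rule 56.1% of the 170818 entries and 70.2% of the reads were TRB. Total TRB reads per tumour were 5060 to 188185 in Vehicle (median 56219.5), 58534 to 399662 in aPD-1 (median 199348) and 32948 to 407156 in AC484 (median 135135), so the shallowest libraries lay in the control group. The reads carry no molecular identifiers, so every interval and floor below covers counting error only. Each library carried 1 of 4 reverse index primer sets and 1 of 12 forward index primers. Set 1 held Vehicle 1 to 12, set 2 held Vehicle 13 and 14 with aPD-1 1 to 10, set 3 held aPD-1 11 to 15 with AC484 1 to 7, and set 4 held AC484 8 to 15. No set held both AC484 and Vehicle, so that these 2 groups and their index sets cannot be told apart.

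Public CDR3s were few among sequences and many among reads. They made up 3758 entries, 3.92% of all TRB entries, yet 40.1% of all TRB reads. Most of these reads, 37.6% of all TRB reads, lay in 134 members. Without their entries under 1% of their largest count, those 134 fell under 10 tumours. The other 140 members held 2.48% of all TRB reads. The 61699 CDR3s of a single tumour, 84.8% of all distinct ones, held 16.3% of the reads. A public CDR3 was read in a median of 13 tumours, 26 of them in 20 or more. The median over member entries was 9 reads, against 4 over the entries of single-tumour CDR3s, and 17.0% of member entries rested on 1 read, against 24.9%.

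Public CDR3s were shorter than CDR3s of a single tumour and held fewer residues that no V or J gene encodes. Mean length was 13.63 residues over the 274 members and 14.34 over the 61699 single-tumour sequences. The difference was -0.710 residues, while both medians were 14. Members of 13 or fewer residues made up 41.2%, against 25.4%, and members of 16 or more made up 2.55%, against 18.6%. Within a tumour, its public CDR3s were shorter than its private ones by a mean of 0.678 ± 0.129 residues (SD, n = 44), in 44 of 44 tumours. These 44 values share members, so they are not independent.

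The middle stretch, what remained after the longest match to a V start and to a J end, was 3.09 residues in public and 4.03 in single-tumour CDR3s. Within tumours this difference was -0.945 ± 0.168 residues (SD, n = 44), with public CDR3s below in 44 of 44. A middle of 2 or fewer residues was found in 29.2% against 11.3%, and no middle residue at all in 2.19% against 0.147%. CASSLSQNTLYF, in 30 tumours, is an example of the latter, a V start joined directly to the end of Trbj2-4.

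The middle of public CDR3s was wholly readable from a D gene more often, though not in most of them. In 33.6% of public CDR3s the whole middle could be read from a germline reading frame of Trbd1 or Trbd2, against 3.23% of single-tumour CDR3s. The share rose with the number of tumours, from 3.23% in 1 tumour to 10.9% in 2, 21.1% in 3 to 4, 28.0% in 5 to 9 and 35.1% in 10 to 19 tumours, and was 19.2% in the 26 CDR3s of 20 or more. The difference was also present at equal length: among CDR3s of 14 residues the shares were 34.0% and 2.37%, and among those of 13 residues 40.0% and 5.57%.

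**Figure D1:**
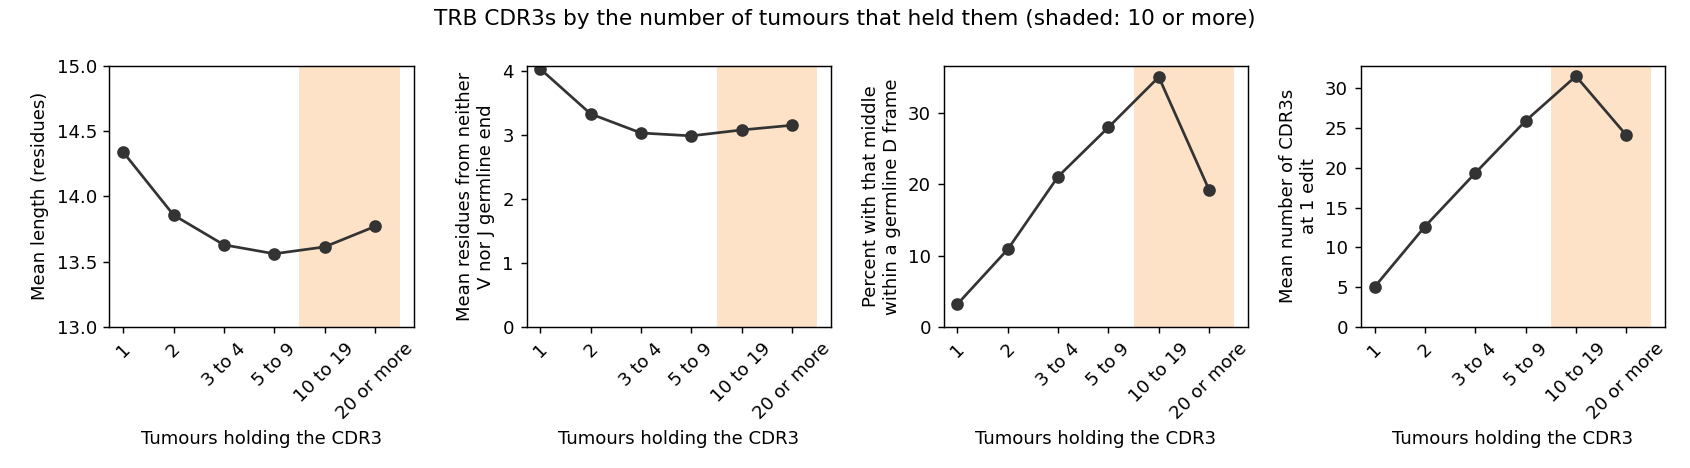
CDR3 length, middle residues, share with a middle readable from a germline D gene and neighbours at 1 edit, by the number of tumours that hold the CDR3 (x axis, 1 to 20 or more). CDR3s of 1 tumour had a mean of 4.03 middle residues and 5.04 neighbours, those of 10 or more 3.09 and 30.8.

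Glycine took 41.5% of the 846 middle residues of public CDR3s, against 28.8% of the 248862 of single-tumour CDR3s. Aspartate (10.9% against 7.75%), proline (7.92% against 5.60%) and tryptophan (7.21% against 4.39%) were also more frequent. Arginine (4.61% against 9.65%) and alanine (3.07% against 6.66%) were less frequent, and cysteine was not found in the middle of any member. The commonest middles were TGG (11 members, 4.01% against 0.160%), GG (10 members, 3.65% against 0.164%), D (9 members), DWG (8 members, 2.92% against 0.0713%) and DWGG (7 members, 2.55% against 0.0632%). TGG and DWGG are the residues in capitals in the 2 D segments above. The first frame of Trbd2 also encodes TGG, so TGG does not tell which D segment was used. WGG, a stretch that only the third frame of Trbd2 encodes, stood in the middle of 26 members, 9.49%, against 3.66%.

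Trbj2-7 was the J gene that set public CDR3s apart most in number. It ended 70 of the 274 members, 25.5%, against 13.5% of single-tumour CDR3s, a ratio of 1.89. Within tumours its share was higher among public CDR3s by 10.9 ± 5.34 percentage points (SD, n = 44), and higher in 43 of 44. Trbj2-4 followed with 29 members, 10.6% against 7.14%, higher in 42 of 44 tumours by 5.55 ± 3.74 points. Trbj1-1 ended 31 members (11.3% against 9.23%).

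The other J genes had a smaller share of public than of single-tumour CDR3s. Trbj2-1 ended 34 members (12.4% against 15.2%), Trbj2-5 32 (11.7% against 12.1%) and Trbj2-3 21 (7.66% against 10.1%). Trbj1-4 ended 16 (5.84% against 7.40%), Trbj1-2 15 (5.47% against 5.96%) and Trbj1-3 12 (4.38% against 5.83%). The lowest ratios were those of Trbj2-2, with 7 members (2.55% against 6.74%, ratio 0.379), Trbj1-6, with 5 (1.82% against 3.57%, ratio 0.511), and Trbj1-5, with 2 (0.730% against 3.24%, ratio 0.225). One of the 2 Trbj1-5 members was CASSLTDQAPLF, in 25 tumours.

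**Figure D2:**
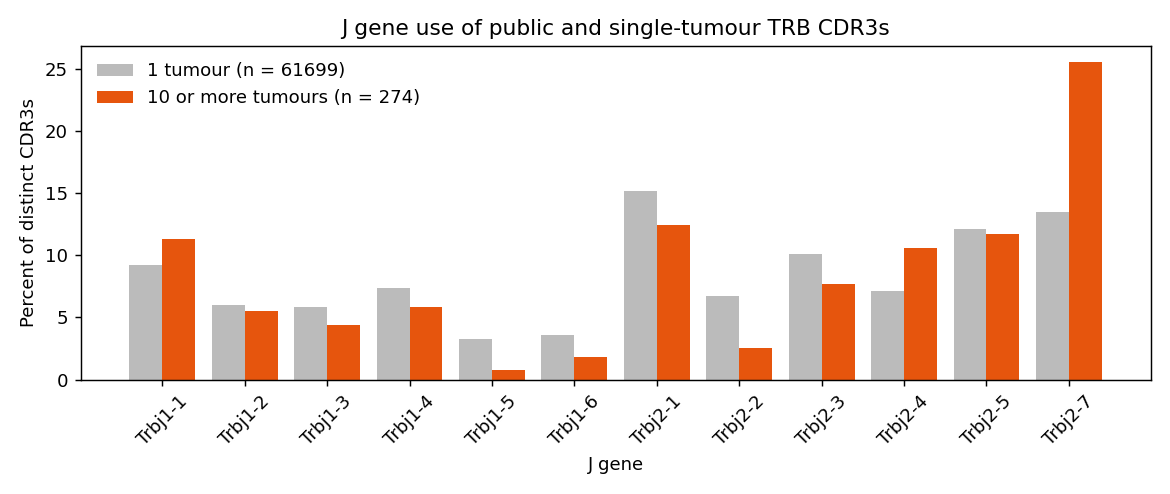
Share of CDR3s (percent) that end in each of the 12 J genes, for the 274 public CDR3s and the 61699 CDR3s of a single tumour. Trbj2-7 is at 25.5% and 13.5%, and Trbj1-5 at 0.730% and 3.24%.

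V genes were read only from the first residues, since the table pairs no V gene with a CDR3, and several genes can give the same start. CASSL, the germline end of 7 V genes, began 29.6% of public and 13.9% of single-tumour CDR3s. CASSQ began 11.7% and 7.25%, and CASSR 10.2% and 5.12%. CGAR, which marks Trbv20, began 19 members, 6.93% against 2.57%. Other starts were rarer among public CDR3s: CTCSA, of Trbv1, began 2 members (0.730% against 4.98%), CAWS, of Trbv31, 3 members (1.09% against 3.68%), and CASGD, of Trbv13-2, 11 members (4.01% against 5.28%). No intact V start was found in 5.84% of public CDR3s and in 21.9% of single-tumour CDR3s.

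Public CDR3s lay in crowded parts of the repertoire. A neighbour, another of the 72765 CDR3s at 1 substitution, insertion or deletion, was found for 98.2% of the members and for 79.8% of single-tumour CDR3s. The mean number of neighbours was 30.8 and 5.04. Within tumours the share with a neighbour was higher among public CDR3s by 18.0 ± 3.75 points (SD, n = 44), above 0 in 43 of 44. At 14 residues, where length was equal, the shares were 99% and 86.8% and the mean numbers 31.0 and 6.00.

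Members were also neighbours of each other. Joined at 1 edit, 170 of the 274 (62.0%) fell into 28 linked sets, and 104 had no linked member. The largest set held 52 members, all ending in Trbj2-7, and 6 of them are shown to make the substitutions visible.
Set of 52, read in 29 tumours: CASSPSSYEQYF
Set of 52, read in 25 tumours: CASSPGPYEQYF
Set of 52, read in 19 tumours: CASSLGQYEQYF
Set of 52, read in 19 tumours: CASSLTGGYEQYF
Set of 52, read in 18 tumours: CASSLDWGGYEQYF
Set of 52, read in 18 tumours: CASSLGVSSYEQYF

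The next set held 20 members, all ending in Trbj2-1, and the one after it 14 members, all ending in Trbj1-1. Between V start and J end, the 4 members shown of the Trbj2-1 set hold GG, WG, WGG and TGG in that order.
Set of 20, read in 14 tumours: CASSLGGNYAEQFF
Set of 20, read in 12 tumours: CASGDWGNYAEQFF
Set of 20, read in 12 tumours: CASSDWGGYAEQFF
Set of 20, read in 12 tumours: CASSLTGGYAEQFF
Set of 14, read in 21 tumours: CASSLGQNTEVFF
Set of 14, read in 19 tumours: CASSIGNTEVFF
Set of 14, read in 14 tumours: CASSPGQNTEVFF
Set of 14, read in 14 tumours: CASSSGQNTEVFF
Set of 14, read in 13 tumours: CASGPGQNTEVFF

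Reads of a public CDR3 were rarely even over the tumours that held it. In 128 members 50% or more of all reads came from 1 tumour, and in 58 members 90% or more did. The median member had 46.6% of its reads in its largest tumour. At the top, 107 members reached 1% of the TRB reads of some tumour and 34 reached 10%, while 98 never passed 0.1%. The 10 members with the most reads held 33.8% of all member reads. In 28 of 44 tumours the most abundant TRB CDR3 was a public one, in 8 of 14 Vehicle, 12 of 15 aPD-1 and 8 of 15 AC484 tumours.

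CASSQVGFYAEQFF, in 17 tumours, had the largest share of a repertoire. It took 164981 of the 273354 TRB reads of aPD-1 6, 60.4% (Wilson 95% interval 60.2 to 60.5%). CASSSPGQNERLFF, in 21 tumours, had 221100 of its 221893 reads in AC484 4, where it took 54.3% (54.2 to 54.5%), and a median of 9 reads where it was found. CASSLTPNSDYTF, in 19 tumours, took 39.9% (39.6 to 40.1%) of Vehicle 3, with 42044 reads. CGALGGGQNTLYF, in 14 tumours, took 33.1% (32.8 to 33.3%) of Vehicle 14, and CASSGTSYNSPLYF, in 16 tumours, 29.9% (29.6 to 30.3%) of Vehicle 13. Of these 5, all but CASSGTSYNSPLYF, which did so in 2 tumours, reached 1% of their largest count in that tumour alone.

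The members in the most tumours split the same way into dominated and even ones. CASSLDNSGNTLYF had 15874 reads over 32 tumours, 10870 of them in aPD-1 1, with a median of 13.5. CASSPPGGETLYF had 88936 reads, 71258 of them in aPD-1 2, with a median of 11.5. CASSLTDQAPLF had 33951 reads, 27249 in aPD-1 6, with a median of 3. These 3 were carried by 1 tumour each. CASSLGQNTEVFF (18678 of 19288 reads in AC484 7, median 6) and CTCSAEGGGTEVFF (30068 of 36650 in aPD-1 14, median 86) were too. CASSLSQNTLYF had 22990 of 37084 reads in aPD-1 3 (median 53) and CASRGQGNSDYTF 28871 of 44558 in aPD-1 2 (median 5). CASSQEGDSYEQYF had 6490 of 11688 reads in aPD-1 10 (median 31).

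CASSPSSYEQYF, in contrast, had 2933 reads over 29 tumours, at most 675 in 1 of them, with a median of 50. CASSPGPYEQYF had 9025 reads, at most 1907, with a median of 85. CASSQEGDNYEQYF had 8478 reads, at most 4037, with a median of 37. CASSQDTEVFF, in 20 tumours, never had more than 140 reads, and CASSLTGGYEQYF, in 19 tumours, never more than 85. The last 2 were present at moderate counts in many tumours and dominant in none.

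**Figure D3:**
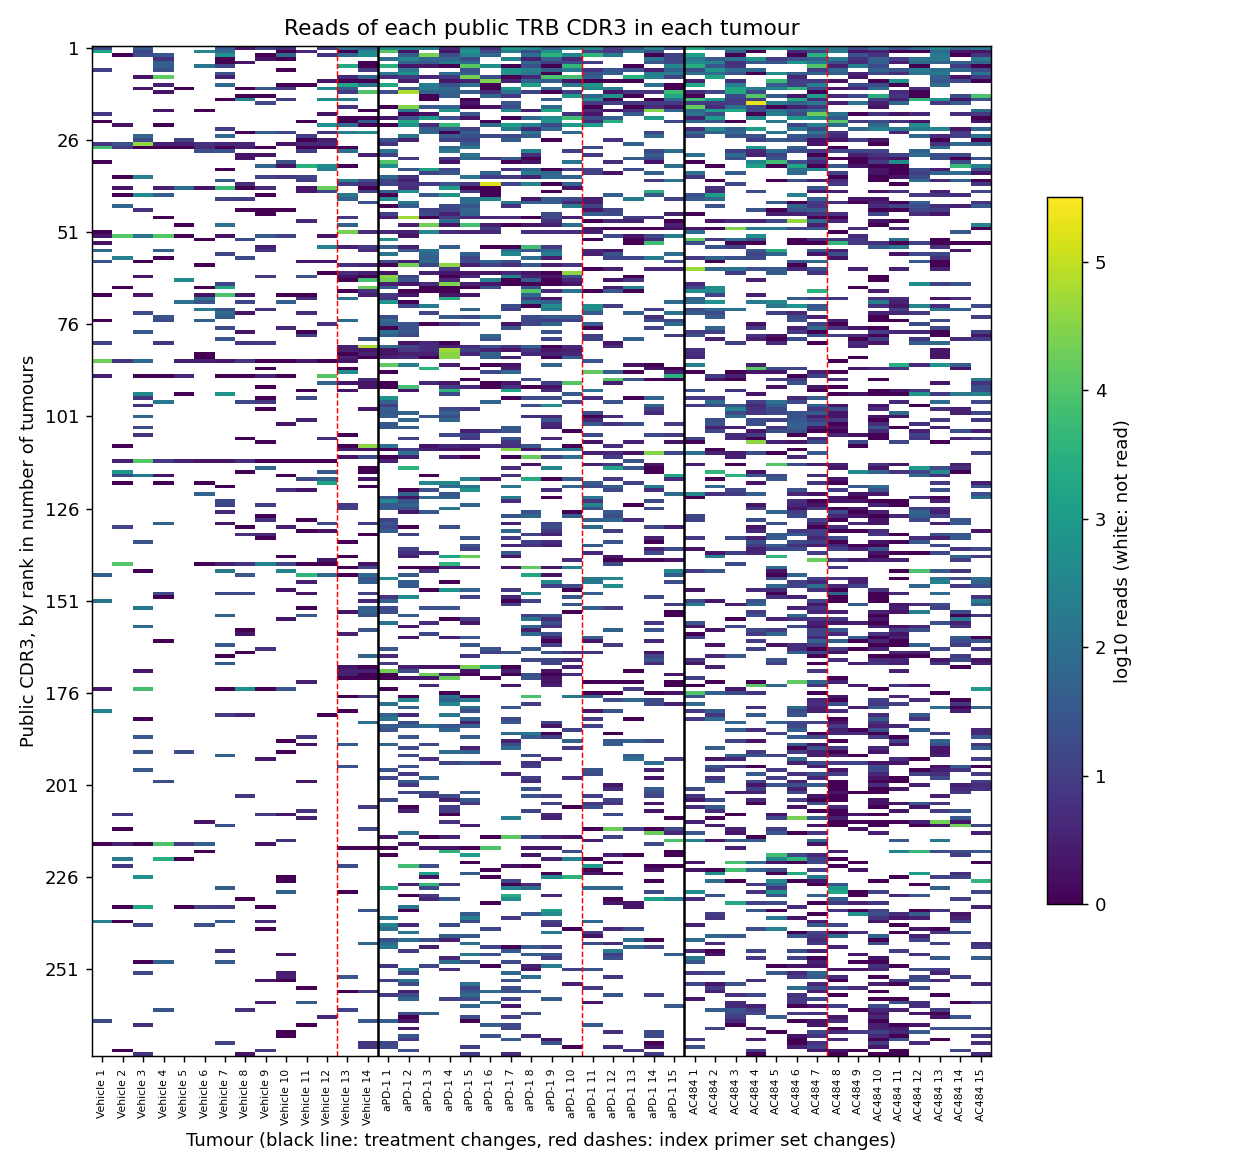
Reads of public CDR3s (colour, log scale) in each of the 44 tumours (x axis, ordered by group and replicate, with the index primer sets marked), 1 row per member. Members with a very high count in 1 tumour show a band of low counts over the tumours of the same index set, as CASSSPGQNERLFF does in 11 of 11 others.

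Spread over index primers followed the size of the largest count. Every member was read in at least 2 index sets, 6 of them in 2 sets, 92 in 3 and 176 in 4. For the 65 members with 10000 or more reads in a tumour, the CDR3 was found in 75.8% of the other tumours of the same index set and in 72.0% of those with the same forward primer. It was found in 15.1% of the tumours that shared neither primer. The median count was 3 reads in the same set, 0.0137% of the largest count, and 7 reads where neither primer was shared. For the 48 members whose largest count was 1000 or more but under 10000, the shares were 49.2%, 40.0% and 22.5%.

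For members with smaller largest counts the 3 shares lay close together. They were 32.0%, 35.9% and 28.6% for the 71 members whose largest count was 100 or more but under 1000, and 27.3%, 25.7% and 25.3% for the 90 members that stayed under 100. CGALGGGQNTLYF, at its largest in Vehicle 14, was found in 11 of 11 other tumours of that set, in 2 of 3 with the forward primer and in 0 of 29 with neither. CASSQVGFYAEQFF was found in 11 of 11, 3 of 3 and 2 of 29, and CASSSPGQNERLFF in 11 of 11, 2 of 2 and 7 of 30. The evenly read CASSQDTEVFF was found in 5 of 11, 1 of 3 and 13 of 29, and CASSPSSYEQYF in 8 of 11, 2 of 2 and 18 of 30. Whether the low counts beside a very high one are reads carried over between libraries was not tested.

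**Figure D4:**
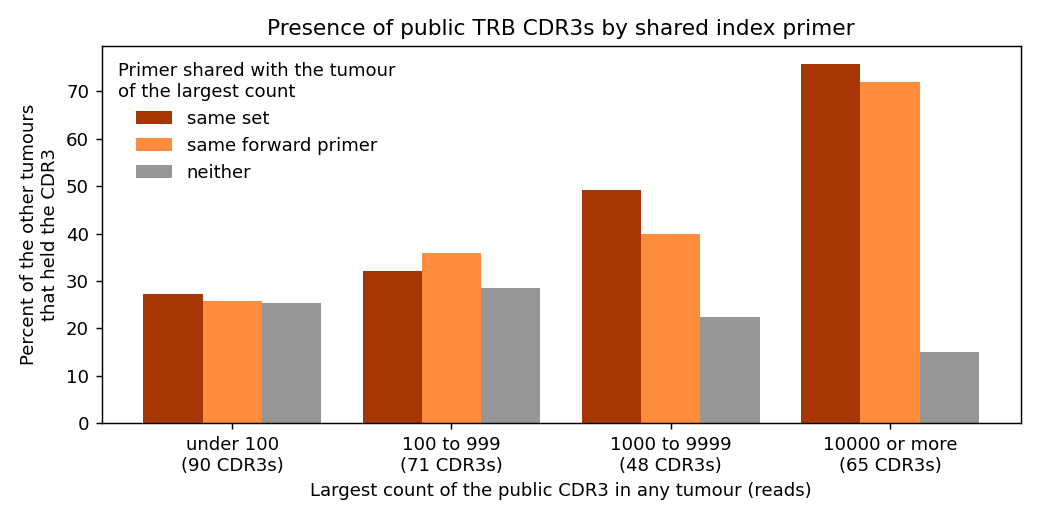
Share of the other tumours (percent) in which a public CDR3 was found, by its largest count and by whether the tumour shares the index primer set, the forward primer or neither with the tumour of that count. At 10000 or more reads the shares were 75.8%, 72.0% and 15.1%, and under 100 reads 27.3%, 25.7% and 25.3%.

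A relative count of 1% was used to mark possible carry-over. Of the 3758 member entries, 1453 (38.7%) had under 1% of the reads that their CDR3 reached in its largest tumour. Without them 140 members were still in 10 or more tumours and 134 were not, and 101 members had no such entry at all. The 134 others held 37.6% of all TRB reads and had a median largest count of 9410.5. The 140 held 2.48% of the TRB reads, with a median largest count of 77.5. Among the 12 members shown first, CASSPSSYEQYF was left in 22 tumours, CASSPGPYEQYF in 16 and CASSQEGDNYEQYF in 12. The remaining 9 fell under 10 tumours, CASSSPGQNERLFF to 1 and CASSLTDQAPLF to 3.

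The sequence features were found among both, and were further from single-tumour CDR3s in the 140. Mean length was 13.56 residues in the 140 and 13.69 in the 134, and the middle 2.95 and 3.23 residues. Trbj2-7 ended 47 of the 140 (33.6%) and 23 of the 134 (17.2%). The middle was readable from a germline D gene in 45.7% and 20.9%. Mean neighbours were 38.3 and 23, and 80.7% and 42.5% were linked to another member. On length, middle residues, Trbj2-7, D gene middles and neighbours, the 134 lay between the 140 and the single-tumour CDR3s.

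The study asked how AC484 and aPD-1 change the repertoire against the control. The 3 comparisons below share samples, since each group stands in 2 of them. Because members were chosen by presence over all groups, sums over members are given as descriptions with no test. In bulk tumours, fewer T cells of a clone and less receptor RNA per cell cannot be told apart. Of the 274 members, 211 were read in all 3 groups, 63 in 2 and 0 in 1. They were read in Vehicle tumours in 214 cases, in aPD-1 in 273 and in AC484 in 272.

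Treated tumours held more public CDR3s, and public CDR3s were a smaller share of their repertoire. A Vehicle tumour held 42.1 ± 16.5 members (SD, n = 14, 17 to 76), an aPD-1 tumour 96.3 ± 22.1 (n = 15, 58 to 128) and an AC484 tumour 115 ± 28.2 (n = 15, 87 to 177). With all tumours drawn to 5060 TRB reads, the numbers were 25.5 ± 10.3, 40.1 ± 8.08 and 44.5 ± 6.20, and the groups overlapped. AC484 lay 19.1 members above Vehicle and aPD-1 14.6, both more than the spread within groups, and AC484 lay 4.45 above aPD-1, less than the spread. With members chosen from the other tumours only, these 3 differences were 15.0, 12.0 and 3.00. More of the tumours that chose the members were treated than not, so the differences are descriptions. As a share of a tumour's distinct TRB CDR3s, members made up 9.33 ± 4.47%, 5.24 ± 1.36% and 3.41 ± 0.830%.

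The number of members followed the size of the repertoire. At 5060 reads a tumour held 373 ± 237 distinct TRB CDR3s in Vehicle, 652 ± 162 in aPD-1 and 854 ± 275 in AC484. Over the 44 tumours the number of members and the number of distinct CDR3s at deposited depth had a Pearson r of 0.904 and a Spearman rho of 0.947, which is a description, since both counts share depth. When each tumour's members were instead scaled to 108 distinct CDR3s, the order turned, with AC484 6.40 and aPD-1 4.43 members below Vehicle. This restates the share of distinct CDR3s at deposited depth, given above, with no CDR3s drawn. The direction thus depended on whether reads were made equal or members were taken as a share of distinct CDR3s.

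Summed reads did not separate the groups. Public CDR3s took 35.4 ± 22.5% of the TRB reads of a Vehicle tumour (3.81 to 71.0%), 36.6 ± 17.8% of an aPD-1 tumour (8.09 to 74.9%) and 26.4 ± 19% of an AC484 tumour (5.82 to 74.4%). The differences, 8.95 points lower in AC484 and 1.27 points higher in aPD-1 than in Vehicle, were smaller than the SD within each group. Their signs were not stable: by group medians they were -18.4 and -2.44 points, and over the 26 CDR3s of 20 or more tumours 6.16 and 5.64 points. The largest single member alone took 19.2 ± 13.2%, 15.1 ± 13.3% and 14.0 ± 13.3%. Over the 140 members alone, without entries marked as possible carry-over, the mean shares were 2.12%, 2.15% and 2.89%.

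Within index set 2, 10 aPD-1 tumours held 41.6 members at equal depth and 2 Vehicle tumours 26.5. Within set 3, 7 AC484 tumours held 44.6 and 5 aPD-1 tumours 37.1. The share of reads was 40.7% in aPD-1 and 54.4% in Vehicle within set 2, and 38.7% in AC484 and 28.5% in aPD-1 within set 3. Both within-set differences in share had the opposite sign to those over all sets. Within set 2 aPD-1 lay 13.7 points under Vehicle, against 1.27 above over all sets, and within set 3 AC484 lay 10.2 points above aPD-1, against 10.2 points lower.

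**Figure D5:**
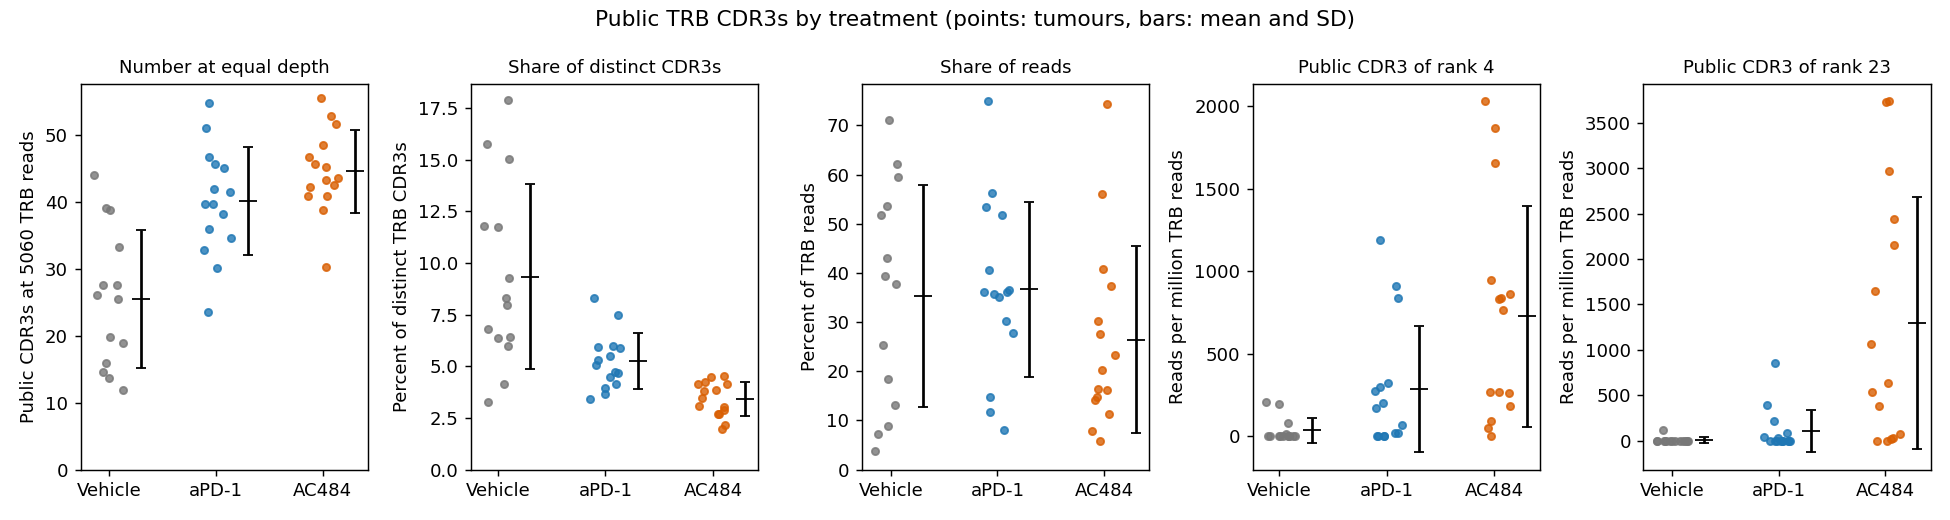
Each point is 1 tumour by group: public CDR3s at 5060 TRB reads, their percent of distinct TRB CDR3s, their percent of TRB reads, and rpm of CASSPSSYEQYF and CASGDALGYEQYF, with group means and SD. The percent of reads overlaps between the groups. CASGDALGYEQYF is at 0 in 13 of 14 Vehicle tumours and above 0 in 13 of 15 AC484 tumours. It counts as public only through the AC484 group, so this is a description and supports nothing.

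At 5060 reads, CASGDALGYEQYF was found in 69.7% of draws of AC484 tumours and 3.21% of Vehicle, the widest gap of any member in that comparison. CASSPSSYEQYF was found in 75.3% and 16.1%, and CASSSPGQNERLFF in 50.7% and 7.14%. Between aPD-1 and Vehicle the widest gaps named were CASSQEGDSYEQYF (46.0% and 1.43%), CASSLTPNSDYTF (11.3% and 53.9%) and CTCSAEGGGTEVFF (44.7% and 3.93%). Between AC484 and aPD-1 they were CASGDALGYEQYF (69.7% and 22.7%), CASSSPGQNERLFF (50.7% and 15.3%) and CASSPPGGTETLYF (33.3% and 0%). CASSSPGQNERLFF, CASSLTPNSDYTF and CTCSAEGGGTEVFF had a very high count in 1 tumour of the group in which they were more frequent. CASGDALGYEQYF, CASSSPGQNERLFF, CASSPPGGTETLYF, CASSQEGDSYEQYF and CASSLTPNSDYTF count as public only through the group in which they were more frequent. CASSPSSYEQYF and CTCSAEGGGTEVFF count as public without that group. Presence is also the value that chose the members, so all these gaps are descriptions and support no treatment difference. Members were more frequent in AC484 than in Vehicle in 194 of 274 cases (70.8%), against 70.1% of all 1462 CDR3s read in 5 or more tumours, so their share was near that of CDR3s in general. Between aPD-1 and Vehicle it was 197 (71.9%, against 63.4%), and between AC484 and aPD-1 149 (54.4%, against 56.0%).

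Single CDR3s were tested with the edgeR quasi-likelihood test over the 1462 TRB CDR3s read in 5 or more tumours, which all 274 members passed. For AC484 against Vehicle 117 members (42.7%) had an adjusted p under 0.05, 75 higher and 42 lower, where the share of all CDR3s tested was 43.8% (30% higher and 13.7% lower). For aPD-1 against Vehicle 123 members (44.9%) did, 88 higher and 35 lower, against 45% of all (31.4% higher and 13.6% lower). For AC484 against aPD-1 71 members (25.9%) did, 23 higher and 48 lower, against 35.9% of all (19.1% higher and 16.8% lower). The members' shares were near or under the background, so these counts are no result about public CDR3s.

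These counts cannot be read as changes. In 70, 73 and 63 of the called members, 50% or more of the reads lay in 1 tumour, and on simulated counts with a spread this wide the test also called CDR3s that had not been changed. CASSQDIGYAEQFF is an example, with a log2 fold change of -14.30 (SE 2.69, edgeR adjusted p 3.17e-05) in AC484 against Vehicle. It had 99.5% of its reads in Vehicle 3 and was found in 10 of 11 other tumours of that index set and in 0 of 29 tumours that shared neither primer. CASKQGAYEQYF, with a log2 fold change of 14.77, likewise had its largest count, 52128 reads, in AC484 1. In the same comparison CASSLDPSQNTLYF (99.1%), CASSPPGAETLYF (74.1%) and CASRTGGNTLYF (98.4%), among the called members with the lowest adjusted p, had most of their reads in 1 tumour. So did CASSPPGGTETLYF (69.6%), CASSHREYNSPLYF (99.7%), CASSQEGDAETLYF (78.2%) and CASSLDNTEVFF (96.9%) for aPD-1 against Vehicle, and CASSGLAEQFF (99.8%), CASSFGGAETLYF (99.7%), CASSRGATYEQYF (99.3%) and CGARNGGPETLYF (99.9%) for AC484 against aPD-1. With the presence of each CDR3 in 1 draw at equal depth and Fisher's exact test, two-sided, none was called in any of the 3 comparisons. An unadjusted p under 0.05 was found for 24, 15 and 6 of the 274 members. It was found for 34, 23 and 11 of all 1462 CDR3s tested (2.33%, 1.57% and 0.752%). The edgeR test called 640, 658 and 525 CDR3s on the same tumours.

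A test that gives less weight to a single high tumour, limma on log2(reads scaled to 5060 TRB reads + 1), was added after seeing the data. It called 4 of the 1462 CDR3s for AC484 against Vehicle (0.274%), all higher in AC484. All 4 are public, which follows from being read in 13 to 15 of the 15 AC484 tumours and is no finding. At the same time 42 of the 274 members had an unadjusted p under 0.05, against 135 (9.23%) of all 1462 CDR3s tested. For aPD-1 against Vehicle and for AC484 against aPD-1 it called 0% (0 CDR3s), with 68 (4.65%) and 120 (8.21%), 29 and 28 of them members, at an unadjusted p under 0.05. Members were read in more tumours than the other CDR3s tested, so these counts are no result about public CDR3s. Differences are on the log2(scaled reads + 1) scale and understate the change of low counts.

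Levels are given in rpm, reads scaled to a TRB total of 1000000. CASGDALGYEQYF was at 0 to 121 rpm in Vehicle (median 0), 0 to 853 in aPD-1 (median 0) and 0 to 3739 in AC484 (median 631). It was read in 1 of 14, 6 of 15 and 13 of 15 tumours. The difference between AC484 and Vehicle was 2.09 (SE 0.392, limma adjusted p 0.00515), and the groups overlapped: Vehicle 7, at 121 rpm, was the only Vehicle tumour with a read, and 5 AC484 tumours lay under it. With 7 tumours outside AC484, it passed the rule of 10 tumours only through the group in which it is high, so its difference is given as a description and supports nothing. The other 3 CDR3s were in 10 or more tumours without the AC484 group. Its start, CASGD, is that of Trbv13-2. In set 3, which held both treated groups, it was read in 6 of 7 AC484 and 0 of 5 aPD-1 tumours. In set 2 it was read in 6 of 10 aPD-1 tumours, so aPD-1 differed between index sets. Its difference between AC484 and aPD-1 over all sets, 1.74 (SE 0.386), had an adjusted p of 0.0749.

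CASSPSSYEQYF ranged from 0 to 210 rpm in Vehicle (median 0), 0 to 1190 in aPD-1 (median 170) and 0 to 2029 in AC484 (median 764), in 4, 11 and 14 tumours. The difference between AC484 and Vehicle was 1.65 (SE 0.330, limma adjusted p 0.00727). In set 3 it was read in 7 of 7 AC484 and 2 of 5 aPD-1 tumours. In set 2 it was read in 9 of 10 aPD-1 tumours, with a median of 221 rpm, against 266 in AC484 of set 3. The aPD-1 values thus differed between index sets, and set 3 alone does not give the treatment difference. At equal depth it was read in 12 of 15 AC484 and 1 of 14 Vehicle tumours (Fisher's exact test, adjusted p 0.0846).

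The other 2 are CDR3s of 15 residues that start with CGARDWGG, a Trbv20 start followed by residues of Trbd2. The one ending in Trbj2-5, in 29 tumours, was at 0 to 655 rpm in Vehicle (median 0), 0 to 403 in aPD-1 (median 80.3) and 45.3 to 2557 in AC484 (median 490), where it was read in 15 of 15. Its difference was 1.52 (SE 0.312, limma adjusted p 0.00798). The one ending in Trbj2-4, in 39 tumours, was at 0 to 1554 (median 279), 10.0 to 4053 (median 855) and 486 to 9759 (median 1528), with a difference of 1.89 (SE 0.441, adjusted p 0.0384). A count of 0 allows up to 3 reads, which is 15.9 to 593 rpm in Vehicle, 7.51 to 51.3 in aPD-1 and 7.37 to 91.1 in AC484, so the shallowest Vehicle tumours bound a 0 only weakly.

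The calls for the first 3 held when each of the 44 tumours was left out, with highest adjusted p of 0.0127, 0.0165 and 0.0200. For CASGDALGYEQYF this is again a description that supports nothing, since it passed the rule only through AC484. The call for the Trbj2-4 sequence was lost in 18 of 44 runs, with adjusted p up to 0.0947. These were the runs without Vehicle 2, 3, 4, 5, 6, 8, 11, 12 or 14 and without AC484 1, 3, 4, 5, 6, 8, 10, 13 or 15. With the index primer set as a block the differences were 2.29, 2.03, 2.32 and 1.57, in the order given, and none of the 4 was called (adjusted p 0.816, 0.729, 0.264 and 0.917). The set and the treatment overlap almost fully here, and their parts cannot be told apart.

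A group of 10 members starts with CGARDWGG. They end in 4 J genes, have 14 or 15 residues, were read in 10 to 39 tumours, and all 10 stayed at 10 or more tumours without the entries marked as possible carry-over. Of the 95 CDR3s with this start in the whole table, 44 were read in a single tumour. Summed over the 10, their level was 0 to 2868 rpm in Vehicle (median 609), 18.3 to 10707 in aPD-1 (median 3158) and 1469 to 12504 in AC484 (median 4264). At least 1 of them was read in 12 of 14 Vehicle tumours and in 15 of 15 of either treated group, and the groups overlapped. A tumour held 0 to 6 of the 10 in Vehicle (median 1.5), 1 to 7 in aPD-1 (median 5) and 4 to 9 in AC484 (median 6). These numbers are at deposited depth, of which the median was lowest in Vehicle. Presence is also the value that chose the members, and several of the 10 reached 10 tumours only with the AC484 group. The one ending in Trbj2-7, for example, was in 1 Vehicle, 3 aPD-1 and 8 AC484 tumours. The levels and numbers of this group are therefore descriptions and support no treatment difference.

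The 65 CDR3s of exactly 10 tumours had a median of 356 summed reads and the 95 of exactly 9 tumours 224, while both had a median length of 14. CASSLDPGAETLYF, in 10 tumours, had the most reads just inside, 23895, of which 23576 were in AC484 6. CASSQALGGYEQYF, in 9 tumours, had the most just outside, 34448, of which 33526 were in 1 tumour.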

How the data were processed

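The authors captured TCR transcripts of 44 bulk tumours (SMARTer kit for mouse TCR), ran the libraries on a MiSeq and used MiXCR to build clonotypes at the amino acid level. The submitters' processing notes name mm10. The deposited counts give, for each CDR3 of either chain, its reads in a tumour. They are not normalized, although the methods describe equal totals. Index primer names came from the deposited table. The members and lists were chosen with earlier results of these data known.

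Groups and replicate numbers came from the labels. CDR3s were compared by length, J ending, V start, middle residues and neighbours at 1 edit. Entries under 1% of a CDR3's largest count were marked as possible carry-over. Equal depth meant 20 draws of 5060 TRB reads, but 1 separate draw for Fisher's exact test and for the number of public CDR3s at equal depth. The main test was edgeR 4.0.16 (R 4.3.3) with TMMwsp scaling and Benjamini-Hochberg adjustment over 1462 CDR3s. Alternatives used DESeq2 1.42.0, limma 3.58.1 (pseudocount 1) and Fisher's exact test (R 4.3.3). Wilson intervals used SciPy 1.17.1. Scripts were tested on simulated data. V and J ends were read from GRCm38 with GENCODE genes. P-values measure the spread between tumours of separate mice.

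Named CDR3s of up to 14 residues were the 12 in most tumours, the 5 with the largest share of a tumour, the 3 with the widest presence gap per comparison, called ones, members of the 3 largest linked sets, and those with most reads at 10 and 9 tumours. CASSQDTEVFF, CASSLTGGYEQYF as an even member, and the CGARDWGG start were chosen after their values were seen.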

Additional observations from a re-analysis of the deposited data

How the results depend on the processing

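Of 90 alternative values, 41 moved by less than the spread between tumours or, for counts, by less than 1.5 times. For the share of reads that spread is wide, and some of these changed sign. The number of public CDR3s was 1462 at 5 or more tumours, 26 at 20 or more, 172 with entries of 2 or more reads, 140 without entries under 1% of the largest count and 34 at equal depth. It was 199 when, as chosen after seeing the data, only entries under 0.1% that share an index primer were left out. The length difference was -0.569 residues at 20 or more tumours, and the neighbour difference 12.2 points at 14 residues. Members per tumour differed by 72.8 (AC484 minus Vehicle), 54.1 (aPD-1 minus Vehicle) and 18.7 (AC484 minus aPD-1) at deposited depth. Scaled to 108 distinct CDR3s per tumour, the first 2 differences were -6.40 and -4.43. The share of reads, AC484 minus Vehicle, was -8.95 points as reported, -12.7 with members chosen from the other tumours, -18.4 by medians, 0.777 without possible carry-over and 6.16 at 20 or more tumours. For aPD-1 minus Vehicle it was 1.27, -1.35, -2.44, 0.0379 and 5.64 in that order, and -13.7 within index set 2. For AC484 minus aPD-1 it was -10.2, -11.3, -16.0, 0.739 and 0.517, and 10.2 within index set 3. No set held both AC484 and Vehicle, so that comparison has no value within a set.

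Members called fell from 117, 123 and 71, in the order AC484 minus Vehicle, aPD-1 minus Vehicle and AC484 minus aPD-1, in most alternatives. With the replicate block they were 7, 6 and 0, against 8, 12 and 0 of all 1462 CDR3s tested. With the index set as a block they were 6, 5 and 0, against 35, 39 and 0 of 1462. Without possible carry-over they were 71, 74 and 8 of 190 members tested, against 446, 453 and 170 of 1026 CDR3s. By DESeq2 they were 41, 25 and 9 of 178, 155 and 186 members tested. Over all CDR3s DESeq2 called 58 of 272, 37 of 215 and 16 of 300. Fisher's exact test called 0, 0 and 0 members, and also 0, 0 and 0 of all 1462. By limma, added after seeing the data, they were 4, 0 and 0, with 1, 0 and 0 under the replicate block. With the index set as a block they were 4, 5 and 0, against 23, 36 and 0 of all 1462 CDR3s. Those were all lower in the treated group, and the members among them were other than the 4 called without the block. Limma called 4, 0 and 0 members without possible carry-over, 3, 0 and 0 at equal depth and 3, 0 and 0 over CDR3s in 3 or more tumours. At a pseudocount of 0.1 it called 7, 0 and 0. In the limma settings other than the index block the counts over all CDR3s tested were the same, which is no result about public CDR3s. The cause of these differences was not tested. The replicate numbers are only names of separate mice and pair no samples. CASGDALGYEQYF was the member called under the limma replicate block (adjusted p 0.0220). With the index set as a block it was not called (limma adjusted p 0.816). It counts as public only through the AC484 group, in which it is high, so its call is a description and supports nothing. Depth limits the Vehicle group most, where 3 reads are up to 593 rpm (reads at a TRB total of 1000000).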
